A study of Mus musculus with 8 samples.

Results

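The tumour suppressor p53 and 9 genes of its growth-arrest and damage-response programme were followed in RAW264.7, a mouse macrophage line transformed with Abelson leukaemia virus. The genes are Trp53 itself, Mdm2, Cdkn1a, Phlda3, Eda2r, Ccng1, Sesn2, Zmat3, Plk2 and Aen. They are known members of the p53 pathway, and were chosen with earlier results of these data known. They are represented by 19 probes on the array, of which 18 were well above background on at least 2 arrays, and all 10 genes are among the 20076 genes tested (from 56605 probes). Cells received 1 mM melatonin for 1 h, or none, and then lipopolysaccharide (LPS) of Escherichia coli O55:B5 at 100 ng/ml. The melatonin arm comprised a sample lacking LPS and samples at 1, 3 and 5 h of it, and the arm without melatonin the same 4. Each of these 8 conditions has 1 one-colour array. The question was how LPS changes the transcripts of p53 and its targets, and how they differ with melatonin.

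When cells suffer DNA damage or other stress, p53 is stabilised, mainly by escape from the ubiquitin ligase Mdm2, and binds pairs of short half-sites near its target genes. Mdm2 is itself a target and closes a negative feedback loop. Other targets halt the cell cycle, repair damage or start cell death, and several of them also respond to signals other than p53, among them inflammatory stimuli in macrophages.

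RefSeq promoter sequence (build GRCm38.p6, 250 bases before to 50 after the start) was found for 9 of the 10 genes, in 11 windows; Zmat3 had no entry. A p53 half-site was searched on both strands as RRRCWWGYYY (R is A or G, W is A or T, Y is C or T), with no mismatch allowed. It occurs in 5 of the 9 genes (Trp53, Mdm2, Cdkn1a, Ccng1 and Aen) and in 8.36% of all 32851 promoter windows. A pair of half-sites at most 13 bases apart occurs in 24 of those windows (0.0731%) and, among the members, in the upstream start of Cdkn1a alone. Its half-sites lie 73 and 51 bases before the start with a spacer of 12 bases. Directly after the one at 51, the bases tgacatgttc miss the motif by 1 letter and were not counted. The downstream Cdkn1a start, 2790 bases further 3′, has 0 half-sites. The upstream window is printed whole because probes of both Cdkn1a transcripts were measured. The capitals mark the half-sites (plus strand, chr17:29090729-29091028).
Cdkn1a upstream start: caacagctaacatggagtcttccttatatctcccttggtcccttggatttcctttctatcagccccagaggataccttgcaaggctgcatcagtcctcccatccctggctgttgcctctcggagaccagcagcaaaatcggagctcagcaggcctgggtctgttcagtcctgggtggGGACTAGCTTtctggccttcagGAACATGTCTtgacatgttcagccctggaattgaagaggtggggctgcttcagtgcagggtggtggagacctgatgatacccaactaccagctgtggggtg
The other half-sites are shown in short windows with the half-site in capitals, in the direction of each gene: Ccng1 at chr11:40755437-40755496, minus strand, Mdm2 at chr10:117710910-117710969, minus strand, Aen at chr7:78895912-78895971 and Trp53 at chr11:69580259-69580318, both plus strand.
Ccng1: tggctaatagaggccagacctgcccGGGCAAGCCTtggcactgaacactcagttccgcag
Mdm2: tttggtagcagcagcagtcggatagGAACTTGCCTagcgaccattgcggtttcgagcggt
Aen: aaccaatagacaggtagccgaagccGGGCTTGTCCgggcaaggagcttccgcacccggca
Trp53: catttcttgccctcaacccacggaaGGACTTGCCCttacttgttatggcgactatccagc
Plk2 carries a cyclic AMP response element (TGACGTCA, in capitals, 62 bases before its start), a motif present in 1.79% of all windows; the window is chr13:110394957-110395014, plus strand.
Plk2: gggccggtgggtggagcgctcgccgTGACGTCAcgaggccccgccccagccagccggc
Of the other motifs searched, an NF-kB site was found in 1 member (Trp53; 8.46% of all windows) and the E-box CACGTG in 3 (7.15%). The FOXO site GTAAACA was found in 2 members (3.65%), the AP-1 site TGANTCA in 0 (7.81%) and the ATF4-type element TGATGNAA in 0 (3.97%). A match describes the letters of a window and is not a measured binding site.

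Levels are given as log2 of the scanner's processed signal minus the 75th percentile of the array, so they can be compared between arrays for 1 probe but not between probes. The 75th percentile of the signal lay between 718.73 and 846.11 in the melatonin arm and between 659.14 and 830.09 without melatonin, and no spot was saturated. All 10 macrophage markers were well above background on all 8 arrays, whereas 4 of 4 epithelial markers and 4 of 6 fibroblast markers were so on none. Of the T cell markers 4 of 5 were also well above background on every array, with Cd8a on none. The melatonin arm was lower in summed level than the arm without it for macrophage markers (848 to 949 against 968 to 1140, in units of the 75th percentile). Melatonin lowered 7 of these 10 individually, where it lowered 25.3% of all genes and raised 15.3%. The summed T cell markers were 6.72 to 9.01 with melatonin and 8.32 to 12.8 without, and all 4 measured ones were lowered; the summed granulocyte markers were 1.16 to 1.27 and 1.54 to 1.78, with Ly6g, S100a8 and S100a9 on no array. Of 3 B cell, 2 endothelial, 2 granulocyte and 1 fibroblast marker measured, melatonin lowered 1, 1, 1 and 0 and raised none. The part of these markers in the results was not tested. For melatonin the genes called are 37.7% raised by the 75th percentile scaling and 52.6% by quantile normalization; at 3 h of LPS they are 55.2% and 42.4%, and at 5 h 56.2% and 43.2%.

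Changes were tested with limma over all 20076 genes in an additive model of LPS time and melatonin, and a gene counts as called where the p adjusted by Benjamini and Hochberg was below 0.05. With 1 array per condition, an LPS change rests on 2 arrays against 2, the melatonin difference on 4 against 4, and the error is the residual of the model, in which a melatonin effect that differs between times is included. The comparisons share arrays. The arms occupied different rows of 1 slide and the LPS times different columns, and hours in culture may have risen with LPS time. These cannot be told apart from treatment. No label says that the samples were separate cultures, so the p-values reflect the spread between these samples, which may be technical. The sample titles set the groups; for 3 of the 4 melatonin samples another label field gave LPS times 1 step later, and for the fourth it gave none.

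By each gene's probe of highest mean level, LPS raised Cdkn1a from 1 h on and Eda2r and Aen from 3 h on. It lowered Phlda3 and Zmat3 at 3 and 5 h. The Cdkn1a rise at 3 and 5 h was seen at its 3′ probe and not on averaging its probes. At 1 h its rise was called at that probe alone, and not on averaging. Melatonin raised 6 of the 10 genes, Phlda3 by the most, and lowered Trp53. At 1 h of LPS 1 of the 10 genes was called (Cdkn1a, raised), where 1.96% of all genes were called and 1.67% raised. At 3 h 5 were called, 3 raised and 2 lowered, where 33.7% of all genes were called, 18.6% raised and 15.1% lowered. At 5 h 6 were called, 4 raised and 2 lowered, where 44.2% of all genes were called, 24.9% raised and 19.4% lowered. For melatonin 7 were called (40.6% of all genes), 6 raised and 1 lowered, where 15.3% of all genes were raised and 25.3% lowered. The median over the 10 genes was 0.17, 0.32 and 0.67 log2 at 1, 3 and 5 h of LPS and 0.49 for melatonin, against -0.01, 0.06, 0.08 and -0.10 over all genes.

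**Figure D1:**
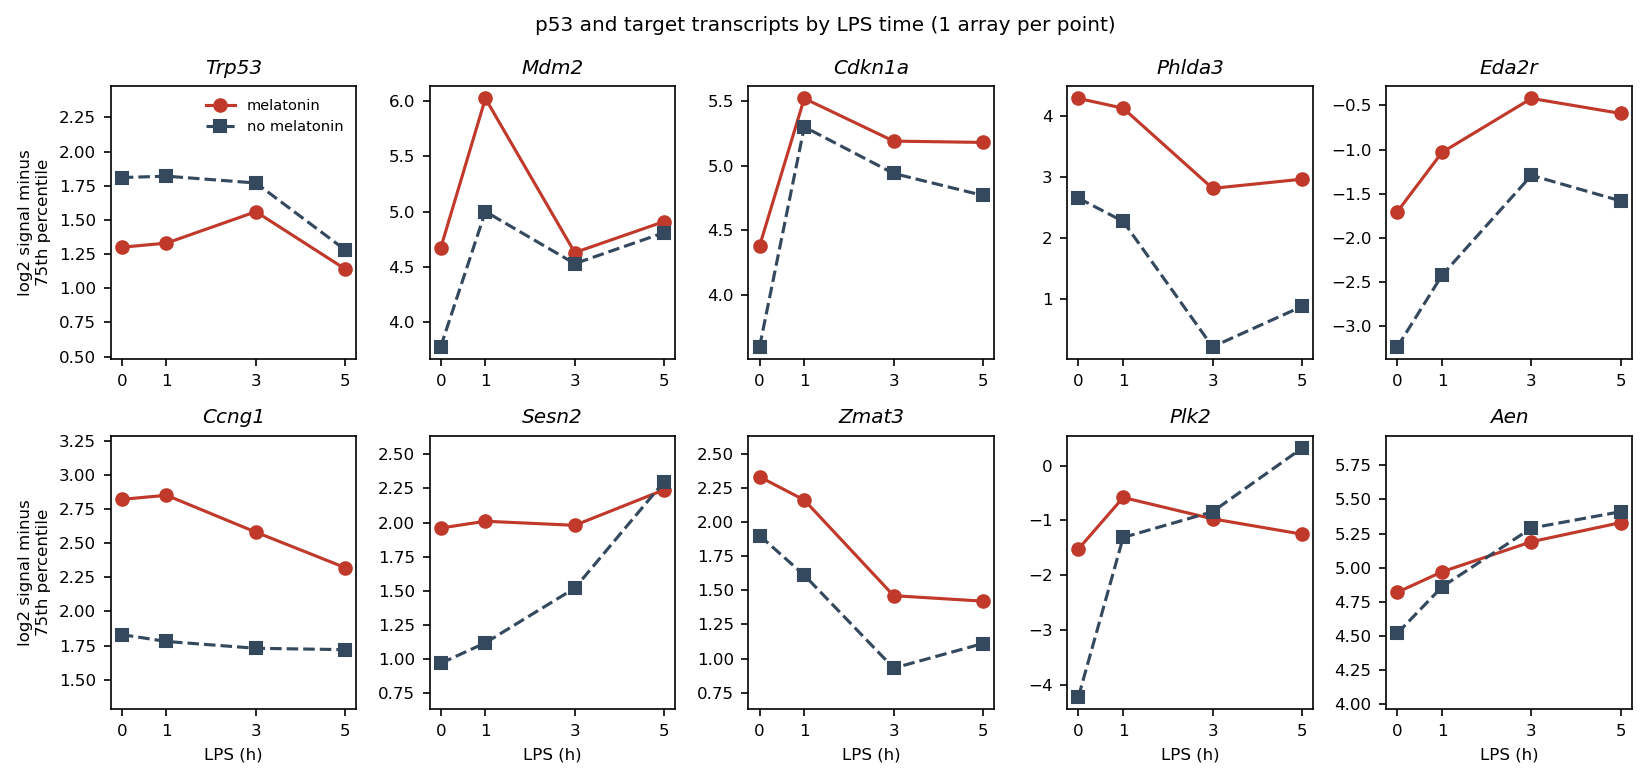
Level of each gene (log2 signal minus the array's 75th percentile; each panel has its own axis) against hours of LPS, with melatonin (red circles) and without (dark squares), 1 array per point. Phlda3 and Ccng1 with melatonin lie above all 4 arrays without it, and the Plk2 lines cross.

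Trp53, which encodes p53, stood at 1.30, 1.33, 1.56 and 1.14 log2 at 0, 1, 3 and 5 h of LPS with melatonin, and at 1.81, 1.82, 1.77 and 1.28 without. The melatonin array was the lower at each of the 4 times, although the arms overlap across times. The mean melatonin difference was -0.34 (SE 0.09; adjusted p 0.0291), a call that was lost in 7 of 17 alternative settings. At 5 h of LPS Trp53 was -0.34 log2 from no LPS (SE 0.12; adjusted p 0.0692), and at 1 and 3 h 0.02 and 0.11 (adjusted p 0.962 and 0.513). None of the LPS changes of Trp53 was called in any of the 16 alternatives. The array reads the transcript and not p53 protein, whose level is known to be set largely by degradation. Its probe lies at chr11:69403134-69403193 (mm9).

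Mdm2, the ubiquitin ligase that degrades p53, stood at 4.67, 6.02, 4.63 and 4.91 log2 with melatonin and at 3.78, 5.00, 4.53 and 4.81 without, at 0, 1, 3 and 5 h of LPS. Both arms were highest at 1 h, and the arms were close at 3 and 5 h, with differences of 0.09 and 0.10. The change at 1 h of LPS was 1.28 (SE 0.26), a 2.43-fold rise that did not pass adjustment over all genes (adjusted p 0.0844). At 3 h of LPS Mdm2 was -0.04 log2 from no LPS with melatonin, and 0.76 without melatonin. The melatonin difference of 0.53 (SE 0.18) was not called either (adjusted p 0.0636); it was called with quantile normalization, the authors' deposited table and the mean of probes. A second Mdm2 probe, whose 60 bases span a splice junction between chr10:117139375 and chr10:117142253 (mm9), was also highest at 1 h in both arms. It gave a melatonin difference of 0.70 (SE 0.19; adjusted p 0.032 over all probes). Its sequence is shown because it lies in the coding part and reads a spliced transcript.
Mdm2 junction probe: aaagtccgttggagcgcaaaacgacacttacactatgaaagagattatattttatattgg

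Cdkn1a, which encodes the cyclin-dependent kinase inhibitor p21, stood at 4.38, 5.52, 5.19 and 5.18 log2 with melatonin, and at 3.60, 5.30, 4.94 and 4.77 without, by the probe at the 3′ end (chr17:29237377-29237436, mm9). All 6 LPS arrays lay above both arrays without LPS, and melatonin was higher at each time. LPS raised it 2.66-fold at 1 h (1.41 log2, SE 0.14; adjusted p 0.0109), 2.10-fold at 3 h (adjusted p 0.00405) and 1.98-fold at 5 h (adjusted p 0.00355). The melatonin difference was 0.42 (SE 0.10; adjusted p 0.0221), and it was 0.22 to 0.42 under LPS, against 0.79 without LPS. The melatonin by LPS term, -0.49 with SE 0.13, had an unadjusted p of 0.0111 and was not called by limma after adjustment (adjusted p 0.908). The melatonin call was lost in 5 of 17 alternatives, with no filter and without any of the 3 h or 5 h arrays, with adjusted p up to 0.0681. The call at 1 h was lost in 4 of 16 alternatives, among them leaving out the 1 h array lacking melatonin, with adjusted p up to 0.0965.

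The 3 Cdkn1a probes were all higher at 1 h of LPS than without it in both arms, by unlike amounts, and differed further at 3 and 5 h. The probe in the upstream first exon (chr17:29227986-29228045) stood at 0.67, 1.05, 0.40 and 0.53 log2 with melatonin and at 0.16, 0.67, 0.14 and 0.03 without. It was highest at 1 h in both arms and back at or below the level without LPS at 3 and 5 h. The probe of an Ensembl transcript (chr17:29235299-29235358) stood at -0.44, -0.16, -1.33 and -1.99 with melatonin and at -2.20, -0.74, -2.13 and -2.20 without. The LPS change at 1 h was 1.41 at the 3′ end (called), 0.44 at the upstream exon (adjusted p 0.103) and 0.87 at the Ensembl probe (adjusted p 0.299). At the Ensembl probe it was 1.47 without melatonin and 0.28 with it. The LPS change at 5 h was 0.98 at the 3′ end (called), -0.13 at the upstream exon (adjusted p 0.344) and -0.77 at the Ensembl probe (adjusted p 0.119). Averaging the 3 probes ended the 3 h and 5 h calls (0.17 and 0.03 log2; adjusted p 0.48 and 0.917). Which transcripts each probe reads was not tested. Melatonin was higher at all 3 probes: 0.42 at the 3′ end, 0.41 at the upstream exon (adjusted p 0.0101 over all probes) and 0.84 at the Ensembl probe (adjusted p 0.0405).

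**Figure D2:**
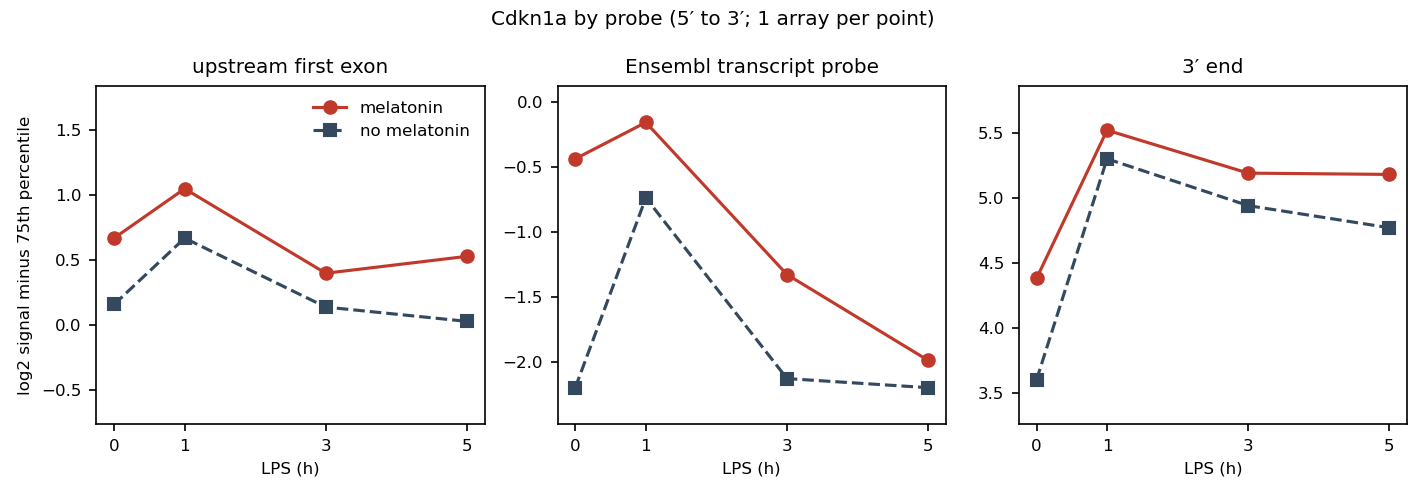
Level of 3 Cdkn1a probes (log2 signal minus the array's 75th percentile; the panels have different axes), ordered 5′ to 3′, against hours of LPS with melatonin (red circles) and without (dark squares), 1 array per point. The 3′ probe stays above its level without LPS at 3 and 5 h in both arms; the upstream probe returns to it.

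Phlda3, an inhibitor of Akt signalling, showed the largest melatonin difference of the 10 genes. It stood at 4.28, 4.12, 2.81 and 2.96 log2 with melatonin and at 2.65, 2.27, 0.22 and 0.88 without. Every melatonin array lay above every array without it, a pattern seen in 6.54% of all genes and shared here by Ccng1. The difference was 2.04 log2, 4.11-fold (SE 0.16; adjusted p 0.00227). LPS lowered Phlda3 3.88-fold at 3 h (-1.96, SE 0.22; adjusted p 0.00263) and 2.93-fold at 5 h (adjusted p 0.0035). At 1 h its change was -0.27 (adjusted p 0.658). Each of these 3 calls was kept in all 16 or 17 alternatives.

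Ccng1, cyclin G1, stood at 2.82, 2.85, 2.58 and 2.32 log2 with melatonin and at 1.83, 1.78, 1.73 and 1.72 without. The arms did not overlap, and levels ranged over 0.54 with melatonin and over 0.11 without. Melatonin raised it 1.84-fold (0.88, SE 0.09; adjusted p 0.00316), a call kept in all alternatives. LPS changes were -0.01, -0.17 and -0.31 and were not called (adjusted p at 5 h 0.1). Eda2r, a receptor for the ectodysplasin isoform EDA-A2, stood at -1.70, -1.03, -0.42 and -0.59 with melatonin and at -3.23, -2.42, -1.29 and -1.58 without. Both arms climbed to 3 h, and melatonin was the higher at each time. LPS raised it 3.05-fold at 3 h (1.61, SE 0.19; adjusted p 0.00292) and 2.60-fold at 5 h (adjusted p 0.00302), and melatonin 2.28-fold (1.19, SE 0.13; adjusted p 0.00362). A second probe gave the same 3 calls; the third was well above background on 1 array and was not tested.

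**Figure D3:**
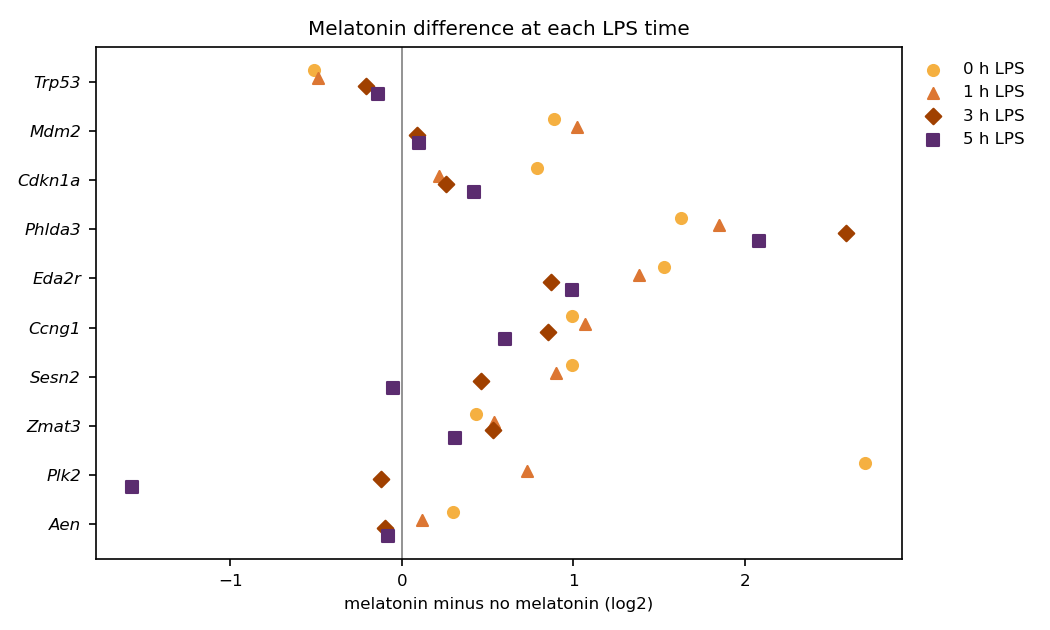
Melatonin minus no melatonin (log2) for each gene at each LPS time, 1 array against 1 per symbol. Phlda3, Eda2r, Ccng1, Zmat3, Cdkn1a and Mdm2 lie right of 0 at all 4 times, Trp53 left of it; Plk2 spans 2.70 to -1.57.

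Zmat3, an RNA-binding zinc finger protein, stood at 2.33, 2.16, 1.46 and 1.42 log2 with melatonin and at 1.90, 1.61, 0.93 and 1.11 without. Both arms were lower at 3 and 5 h than before, and melatonin was higher at every time by 0.31 to 0.54. LPS lowered it 1.90-fold at 3 h (-0.92, SE 0.10; adjusted p 0.00213) and 1.81-fold at 5 h (adjusted p 0.00169). Melatonin raised it 1.37-fold (0.45, SE 0.07; adjusted p 0.00653). Calls of Zmat3 were kept in all alternatives.

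Sesn2, a sestrin that restrains the growth kinase mTORC1, stood at 1.96, 2.01, 1.98 and 2.24 log2 with melatonin and at 0.97, 1.12, 1.52 and 2.30 without. The melatonin arm varied by 0.28 and the other by 1.33, and the arms met at 5 h. The LPS change at 5 h was 0.80 (SE 0.25; adjusted p 0.0464) and the melatonin difference 0.57 (SE 0.18; adjusted p 0.0483). Both calls are at the threshold and were lost in 11 of 16 and 9 of 17 alternatives. Aen, an apoptosis-enhancing nuclease, stood at 4.82, 4.97, 5.19 and 5.33 with melatonin and at 4.52, 4.86, 5.29 and 5.41 without, rising with time in both arms. LPS raised it 1.48-fold at 3 h (0.57, SE 0.11, adjusted p 0.012) and 1.62-fold at 5 h (adjusted p 0.00448). The melatonin difference was 0.06 (adjusted p 0.547) and ran from -0.02 to 0.33 over the 17 alternatives. It was called with quantile normalization and the authors' deposited table (lowest adjusted p 0.0113). The 3 h call was lost in 3 of 16 alternatives. Of its 5 probes, 3 near the 3′ end of the same RefSeq transcript moved alike. A probe of another transcript was -0.19 and -0.31 at 3 and 5 h (adjusted p 0.277 and 0.0813). The remaining probe was 0.40 and 0.46 (adjusted p 0.374 and 0.298), but its arms moved in opposite directions. Without melatonin it changed by 1.10 and 0.96 at 3 and 5 h, and with melatonin by -0.30 and -0.05, 1 array against 1. Its melatonin difference was -0.62 (SE 0.23, adjusted p 0.0782 over all probes, not called). At the other Aen probes this difference was 0.06 to 0.25.

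Plk2, a stress- and serum-inducible polo-like kinase, varied more than any other member. It stood at -1.52, -0.58, -0.97 and -1.25 log2 with melatonin and at -4.22, -1.31, -0.84 and 0.32 without. The melatonin arm stayed within 0.94 log2, whereas the arm without melatonin climbed by 4.54 log2 over 5 h of LPS. The melatonin difference was 2.70 without LPS, 0.73 at 1 h, -0.12 at 3 h and -1.57 at 5 h. The array without melatonin or LPS, at -4.22, was well above background but near the floor of detection. It lay below the common floor of -4.02 log2 used as an alternative, so differences from it are approximate. The additive model gave no call for Plk2: 2.41 at 5 h of LPS (SE 0.91; adjusted p 0.0777) and 0.43 for melatonin (SE 0.64; adjusted p 0.607). The melatonin by LPS term was -3.02 (SE 0.85) with an unadjusted p of 0.0152 and an adjusted p of 0.908. Over all 20076 genes this term gave 0 calls by limma (0%), with 754 genes at an unadjusted p under 0.05; among the members those were Plk2 and Cdkn1a, 2 of 10. Plk2 rests on 1 probe, shown here, which lies across a splice junction in chr13:111187720-111187900 (mm9).
Plk2 probe: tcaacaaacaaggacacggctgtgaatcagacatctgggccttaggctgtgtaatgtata

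At 0, 1, 3 and 5 h of LPS 9, 9, 7 and 6 of the 10 genes were higher with melatonin, where 41%, 41.6%, 42% and 42.1% of all genes were. The median difference over the 10 was 0.94, 0.81, 0.36 and 0.20 log2 at these times, and -0.08 to -0.10 over all genes. 6 genes were higher with melatonin at every time (22.5% of all genes), and 1 was lower at every time (Trp53; 36.7%). At 1 h of LPS 7 genes were higher than without LPS in both arms and 2 lower in both (35% and 37.6% of all genes). At 3 h these were 5 and 3 (44.5% and 34.8%), and at 5 h 6 and 4 (46.2% and 34.9%), so that every member moved the same way in both arms at 5 h.

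Of 34 other p53 targets 31 were measured. For melatonin 18 were raised and 6 lowered, where 15.3% of all genes were raised and 25.3% lowered, with a median of 0.55 log2. The 6 lowered became 2 without either 1 h array, 3 without either 3 h or either 5 h array, 3 with no filter or no intensity trend, and 4 with quantile normalization, the deposited table or the mean of probes. Trp53inp1, a stress-induced p53 cofactor, was raised (adjusted p 0.00222). It was not well above background on 2 of the 4 arrays without melatonin, those at 3 and 5 h, so its measured difference of 3.33 (SE 0.18) is approximate; with a common floor of -4.02 log2 it was 2.61. Ddit4, an mTORC1 inhibitor, rose by 1.56 (SE 0.21), Dcxr by 1.23, Ercc5, a DNA repair nuclease, by 1.04 and Xpc, a damage sensor of the same repair pathway, by 0.97. The death receptor Fas was lowered (-0.97, SE 0.09; adjusted p 0.00275, and 0.155 with the mean of probes), as was Bcl2l1, which encodes the survival protein Bcl-xL (-0.90, adjusted p 0.00813). At 5 h of LPS 8 were raised and 14 lowered, where 24.9% and 19.4% of all genes were (median -0.08, and 0.12 without the melatonin array lacking LPS). Gadd45a, a growth-arrest gene, rose by 3.77 (SE 0.37; adjusted p 0.00116), Bcl2l1 by 3.09 (SE 0.21) and Plk3 by 2.43 (SE 0.21). Trp53inp1 was lowered, by a measured -3.96 (SE 0.25) that rests on a dim array at 5 h without melatonin and was -3.19 with the common floor. This call was lost among probes above background on all arrays (adjusted p 0.105). Sesn1, a sestrin like Sesn2, was lowered (-2.63, SE 0.21), as was Pidd1, a platform for caspase-2 (-2.44).

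**Figure D4:**
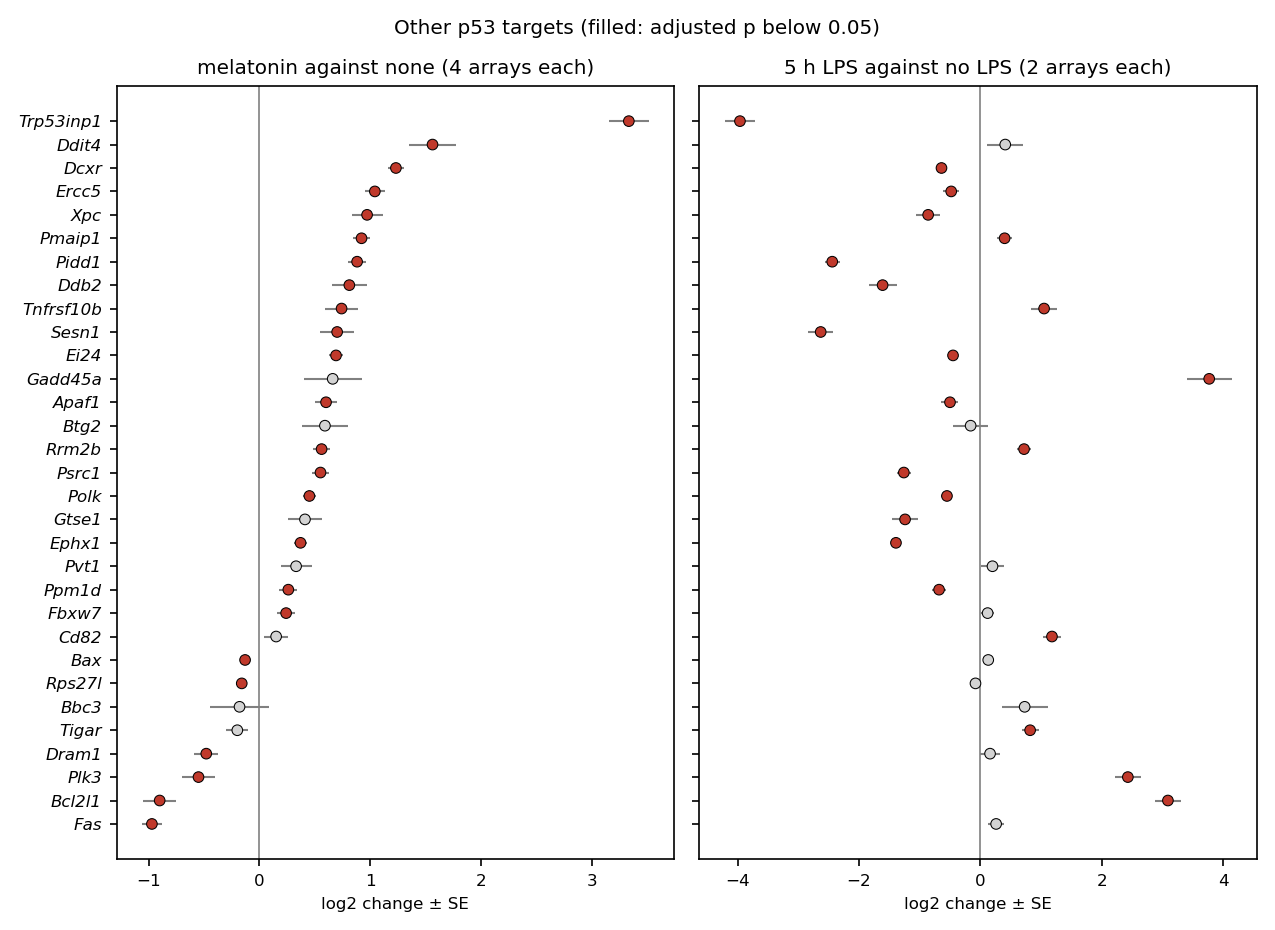
Log2 change with its standard error for 31 other p53 targets, melatonin against none (left) and 5 h of LPS against no LPS (right), with filled red points for adjusted p below 0.05. Trp53inp1, dim at 3 and 5 h without melatonin, has approximate values on both sides; Gadd45a is 3.77 at 5 h of LPS.

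Of the cell-cycle inhibitors of the Cdkn family, 4 of 7 were measured. At 5 h of LPS Cdkn1a was raised, at its 3′ probe only, while Cdkn1b (p27) was -1.32 (SE 0.13, adjusted p 0.00127). Cdkn2c was -2.29 (SE 0.41, adjusted p 0.00705) and Cdkn2d -1.29 (SE 0.23, adjusted p 0.00712). So 1 was raised and 3 lowered, where 24.9% and 19.4% of all genes were. Melatonin raised Cdkn1a and Cdkn1b (0.45, adjusted p 0.0158), where 15.3% of all genes were raised. Neither was called without either 3 h array. Genes that the DREAM complex represses downstream of p21, 20 in all, fell with LPS at 5 h in 19 cases (median -1.33; 19.4% of all genes lowered) and with melatonin in 16 (median -0.54; 25.3% of all genes lowered). The count lowered with melatonin was 5 without either 3 h array and 11 with quantile normalization. In these settings 21% and 36.1% of all genes were called for melatonin, against 40.6% in the main one. Examples are Foxm1 (-2.31 at 5 h, adjusted p 0.000616) and Mki67 (-1.71, adjusted p 0.0017).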

How the data were processed

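RNA of 8 RAW264.7 samples was measured on 1-colour Agilent arrays, 1 per condition. The intensity values are, per the file headers, the signals that Agilent Feature Extraction (version 12.0.3.1) processed, with local background subtracted and detrending applied; scanner mean and background intensity columns served 1 alternative. The authors' deposited log2 values were an alternative only, with the same sorted values on every array. Flags for well above background, saturated and outlier spots are other scanner columns, per the file headers. Probe coordinates are on mm9. From these, log2 of the processed signal minus each array's 75th percentile was computed without control (3671 of 62976) and outlier spots; spots of a probe were averaged. A probe entered if well above background on at least 2 arrays, and a gene took its probe of highest mean level. Models were fitted with limma 3.58.1 in R 4.3.3 (tables read with data.table, version 1.17.8), by lmFit and eBayes with an intensity trend, LPS time (4 levels) plus melatonin, 3 residual degrees of freedom, and a second model with a melatonin by LPS term. Tests were 2-sided with Benjamini-Hochberg adjustment over all genes, and were tested on simulated data. Named genes are the 10 members, list genes with the 3 largest called rises and falls at 5 h of LPS or called for melatonin (examples are given), and the nearest genes of Trp53, Cdkn1a and Mdm2 by correlation. The lists were other p53 targets, p53 regulators, paralogs of members, CDK inhibitors, cyclins with their kinases, DREAM-repressed genes and cell type markers. Some genes are in more than 1 list, such as Plk3 and Sesn1 among other targets and paralogs. Members and lists were chosen with earlier results of these data known. Alternatives were quantile normalization, the deposited table, normexp, other filters, a common floor, no intensity trend, the mean of probes and each array left out; the number of arrays limits precision.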

Additional observations from a re-analysis of the deposited data

Results flagged for a closer look

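The following differences between arms or times rest on 1 array each and were not tested singly; what flagged them is that the effects point in opposite directions. Plk2 differed by -1.57 log2 with melatonin at 5 h of LPS, against 2.70 without LPS, where the array lacking melatonin was near the floor. Mdm2 was -0.04 from no LPS at 3 h with melatonin and 0.76 without. Sesn2 differed by -0.05 at 5 h of LPS, against 0.99 without LPS, and Aen by -0.08 against 0.30. The LPS change of Trp53 at 3 h was 0.26 with melatonin and -0.03 without. Ccng1 at 1 h of LPS changed by 0.03 with melatonin and by -0.05 without, both near 0. The melatonin by LPS term was not called for any of these 6 genes, and was called for 0 of all 20076. It contrasts any LPS with none, so it does not test a difference at a single time.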

How the results depend on the processing

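No paired analysis was possible because each condition has 1 array, so no replicate numbers are shared; the model itself matches the arms by LPS time. Over the alternatives, 615 single-gene values kept their direction and their side of the threshold, 13 uncalled ones were no longer of the same sign, 41 lost a call and 9 gained one. The single call at 1 h of LPS became 0 with a common floor, with no intensity trend and with the mean of probes. There 0.493%, 0.792% and 2.42% of all genes were called. Over all genes, calls at 3 h went from 33.7% to 31.5% with the mean of probes. Those for melatonin went from 40.6% to 15.2% with no filter and to 21% without either 3 h array. Among the members, calls at 3 h became 3 with the mean of probes, and for melatonin 4 with no filter. Leaving out 1 array gave 0 to 1 calls at 1 h (0 without the 1 h array lacking melatonin), 4 to 6 at 3 h, 5 to 7 at 5 h, 4 to 6 for melatonin (4 without either 3 h array) and 0 for the melatonin by LPS term, which could not be fitted without either array lacking LPS. By other probes, Cdkn1a changed sign at 3 h (-0.41 and -0.14) and 5 h (-0.77 and -0.13), and Aen at 3 h (-0.19) and 5 h (-0.31). The causes were not tested. Ccng1 at 5 h of LPS was called without the 5 h array lacking melatonin (adjusted p 0.0367). Plk2 was called at 3 h without the melatonin array lacking LPS (0.0222) and at 5 h without that array or the 5 h melatonin array (lowest 0.0123).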

Other observations

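Among 23 genes that act on p53, 22 were measured. At 5 h of LPS 4 were raised and 5 lowered, near the 24.9% and 19.4% over all genes. The 4 raised became 0 without the array lacking melatonin and LPS, 1 without the 5 h array lacking melatonin, 1 with quantile normalization, the deposited table or no intensity trend, and 2 with no filter. For melatonin 5 were raised and 3 lowered, where 15.3% and 25.3% of all genes were; the 5 became 2 without either 1 h array or with the mean of probes, and 3 without either 3 h array. Cop1, a ubiquitin ligase for p53, rose by 1.12 log2 at 5 h of LPS (SE 0.21; adjusted p 0.00875), a call lost without the array lacking melatonin and LPS or the 5 h array lacking melatonin. Rpl5 (0.30) and Trp53bp1 (0.21) were called too, but not with quantile normalization. The checkpoint kinases Chek2 (-2.39, adjusted p 0.0012) and Chek1 (-0.96, adjusted p 0.00382) and the damage kinase Prkdc (-0.96) were lowered. Of 19 paralogs of the members 16 were measured, 4 raised and 4 lowered at 5 h of LPS, near the same shares over all genes (24.9% and 19.4%). Melatonin raised 4 and lowered 6, and without either 3 h array 0 and 3, where 21% of all genes were called against 40.6% with all arrays. Phlda1, a relative of Phlda3, rose by 5.99 (SE 0.14; adjusted p 4.47e-05), whereas Phlda3 was lowered. Among 12 cyclins and their kinases 2 were raised (Ccnd2 1.38 and Cdk6 2.11) and 7 lowered at 5 h of LPS (24.9% and 19.4% of all genes). Melatonin lowered 7 of the 12 (25.3% of all genes), and 4 without either 3 h array. Of the 7 lowered by melatonin, Ccna2, Ccnb1, Ccnb2 and Cdk1 are also counted among the DREAM-repressed genes.

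Genes were compared with a member if well above background on all 8 arrays and ranging over at least 1 log2 (about 5865 genes). Among them, those whose levels followed a member most closely over the 8 arrays are given as a description, since all share the same arrays. For Cdkn1a these were Prkag3 (Pearson r 0.984), 2810408A11Rik (0.982) and D930030I03Rik (0.975). For Trp53 they were Mmd (0.915), Osbp2 (0.911) and a noncoding transcript without a name (0.894). For Mdm2 they were another such transcript (0.963), Trib1 (0.944) and Prkce (0.924).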
